A study of Mus musculus with 7 samples.

Results

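The genes described here are the neural progenitor genes Notch1, Notch2, Hes1, Hes5, Id1, Id2, Id3, Id4 and Sox2, chosen by gene symbol before the number in each probe name, and each was measured by 1 probe, so that 9 of the array's 382 probes are described. Methylation was measured by Illumina's GoldenGate assay with a custom probe set: bisulphite treatment turns unmethylated cytosine into uracil, and oligonucleotides matching either state of a CpG then compete for the treated DNA. All 7 DNA samples carry the strain label C57BL/6, and the series describes its mice as healthy. The samples titled A2B5_mas and PSA-NCAM_mas have the tissue label Brain. The samples titled Met_0, Met_25, Met_50, Met_75 and Met_100 have the tissue label DNA, and are taken here for control DNA of rising methylation, with the title giving the nominal percent, though no label says so. The antibody A2B5 binds gangliosides on glial progenitors, and PSA-NCAM, a cell adhesion protein carrying polysialic acid, marks migrating neuroblasts. The labels give no treatment, age, sex, brain region, isolation method or meaning of the ending "mas". Each title is 1 array, so no replicate spread exists, only the trend over the 5 Met arrays was tested, and every other comparison describes these arrays alone. All values are methylation fractions, from 0 (unmethylated) to 1 (methylated). In a brain sample, fewer methylated cells and partial methylation in each cell cannot be told apart.

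Notch receptors are cleaved when a Delta or Jagged ligand on a neighbouring cell binds them, and the released intracellular part joins the DNA-binding protein RBPJ to switch on target genes. Hes1 and Hes5, basic helix-loop-helix repressors, are the best-known targets in the developing brain, where they hold back proneural genes and keep progenitors undifferentiated. Id proteins, induced by bone morphogenetic proteins, lack a DNA-binding region and block the same proneural factors by pairing with their partners. SOX2 is a transcription factor of pluripotent and neural stem cells.

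Promoter sequences of 5 genes are shown to go with the CpG counts given below. Notch1 and Notch3 were picked as related receptors with unlike brain methylation, and Hes5 as a Notch target. Id4 was picked for its distance from Met_0 and Sox2 for its brain level. Whether the sequences bear on the methylation values was not tested. The printed bases are the 250 before a transcription start in RefSeq, build GRCm38.p6. They run 5′ to 3′ on the gene's strand with each CpG in capitals. At Hes5 they lie inside the annotated gene, which begins at 154960626. Where the probed CpG lies is not stated, and it may be outside these bases. Notch1 is at chr2:26503823-26504072 (minus strand) and Notch3, a related receptor outside the chosen genes, at chr17:32166891-32167140 (minus strand). Hes5 is at chr4:154960673-154960922, Id4 at chr13:48260866-48261115 and Sox2 at chr3:34649745-34649994, all 3 on the plus strand.
Notch1: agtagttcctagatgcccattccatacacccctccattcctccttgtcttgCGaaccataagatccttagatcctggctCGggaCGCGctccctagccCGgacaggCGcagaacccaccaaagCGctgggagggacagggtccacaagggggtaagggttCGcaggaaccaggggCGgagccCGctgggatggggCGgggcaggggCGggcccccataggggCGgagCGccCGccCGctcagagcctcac
Notch3: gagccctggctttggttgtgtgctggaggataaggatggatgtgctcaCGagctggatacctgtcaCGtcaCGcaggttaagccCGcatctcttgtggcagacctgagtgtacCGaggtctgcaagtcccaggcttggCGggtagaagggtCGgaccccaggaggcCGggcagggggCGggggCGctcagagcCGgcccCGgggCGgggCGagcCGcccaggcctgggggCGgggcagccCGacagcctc
Hes5: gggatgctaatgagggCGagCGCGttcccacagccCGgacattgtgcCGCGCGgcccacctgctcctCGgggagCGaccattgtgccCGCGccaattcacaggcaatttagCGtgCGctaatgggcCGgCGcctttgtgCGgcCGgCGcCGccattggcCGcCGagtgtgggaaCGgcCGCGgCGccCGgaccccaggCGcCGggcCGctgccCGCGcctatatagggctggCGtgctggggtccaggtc
Id4: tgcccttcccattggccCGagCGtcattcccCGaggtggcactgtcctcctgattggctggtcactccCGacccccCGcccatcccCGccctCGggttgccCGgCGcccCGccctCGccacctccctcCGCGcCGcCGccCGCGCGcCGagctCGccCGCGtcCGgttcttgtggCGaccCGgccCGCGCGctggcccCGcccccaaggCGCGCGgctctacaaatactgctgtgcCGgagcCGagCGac
Sox2: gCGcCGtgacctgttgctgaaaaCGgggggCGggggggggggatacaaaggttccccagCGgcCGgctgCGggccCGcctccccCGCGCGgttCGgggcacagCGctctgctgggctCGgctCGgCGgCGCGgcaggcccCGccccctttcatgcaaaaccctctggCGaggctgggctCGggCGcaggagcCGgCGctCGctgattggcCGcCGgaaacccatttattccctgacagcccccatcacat

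The progenitor genes were methylated at a low level in both brain samples. A fraction under 0.2 in both arrays was found at 8 of the 9 probes, against 66% of all 382 probes, and Sox2 was the exception. A fraction under 0.1 in both was found at 7 of the 9, against 48.7% of all probes, Id3 being the further exception. Under quantile normalization of all 7 arrays, which gives brain and Met arrays the same distribution, 1 of the 9 was under 0.2 in both. The share of all probes under that normalization is not given here, so this count has no background beside it. The median over the 9 was 0.0700 in A2B5_mas and 0.0744 in PSA-NCAM_mas, beside 0.101 and 0.0970 over all probes. The receptor Notch1 stood at 0.0615 in A2B5_mas, with 0.0584 in PSA-NCAM_mas. Notch2, its close relative, had 0.0530 and 0.0553. Both receptors therefore stood near the bottom of the scale in either sample.

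Of the Notch targets, Hes1 had the lowest values of the 9, at 0.0361 in A2B5_mas and 0.0324 in PSA-NCAM_mas, and only 1 probe of the 382 was lower in each array. Hes5 had 0.0700 and 0.0776. Among the Id genes, Id4 had 0.0533 and 0.0488. Id1 had 0.0813 and 0.0745, Id2 had 0.0914 and 0.0744, and Id3 had 0.106 and 0.0888. The 4 Id genes thus stayed between 0.0488 and 0.106, with Id3 the highest of them in each array. Sox2 reached 0.207 in A2B5_mas, with 0.184 in PSA-NCAM_mas, above every other gene of the 9 in both.

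By the mean of both brain arrays the order from the lowest was Hes1, Id4, Notch2, Notch1, Hes5, Id1, Id2, Id3 and Sox2. The 7 gaps between neighbours from Hes1 to Id3 were at most 0.0168. The gap between Id3 and Sox2 was 0.0981. With 1 array per title no replicate spread was available to say which neighbours differ beyond error. Probes differed in the range they covered between Met_0 and Met_100, and the order is one of measured fractions.

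**Figure D1:**
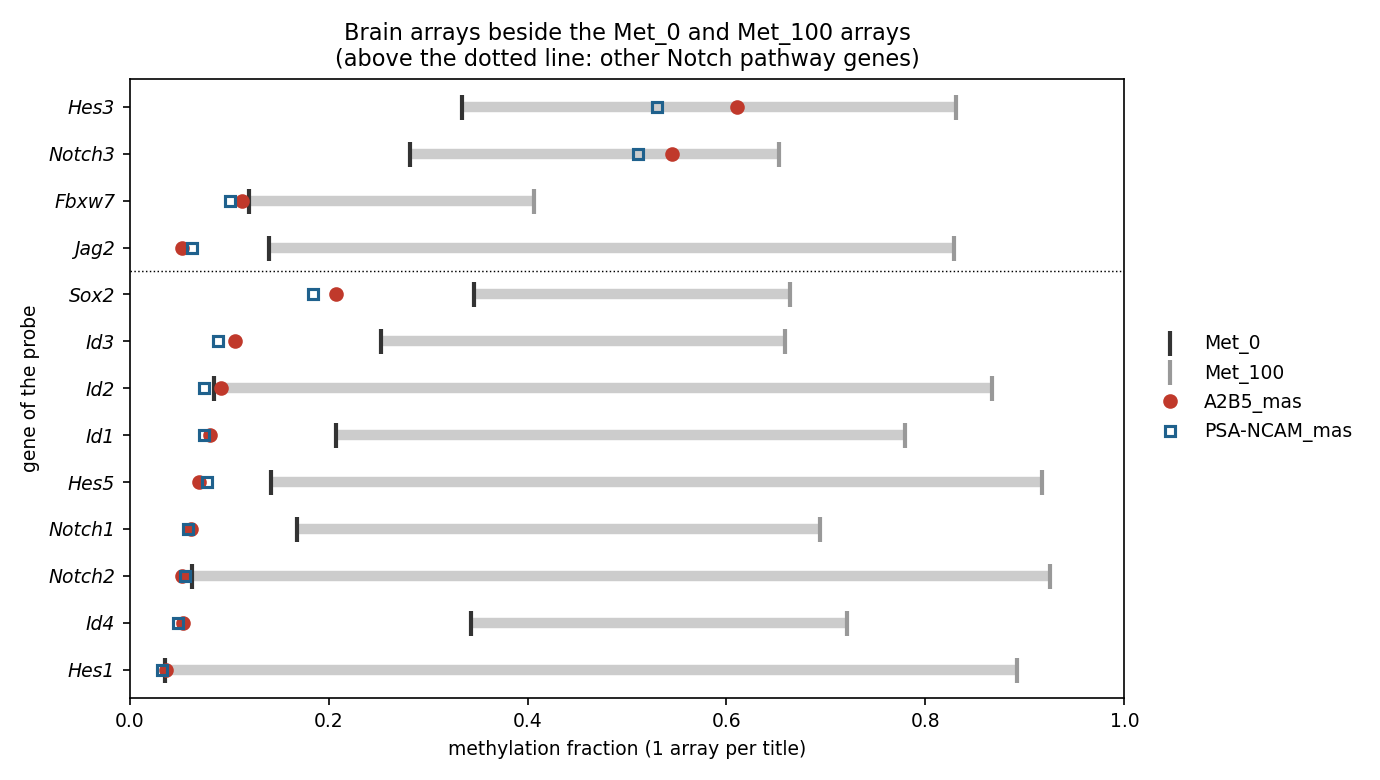
Methylation fraction (horizontal axis, 0 to 1) of each gene's probe in A2B5_mas (filled circle) and PSA-NCAM_mas (open square), with a grey bar from its Met_0 to its Met_100 value, 1 array per title. Genes below the dotted line are the 9 progenitor genes ordered by brain mean, from Hes1 to Sox2, and those above it are 4 other Notch pathway genes, of which Notch3 and Hes3 lie inside their grey bars.

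The brain samples were next set against Met_0, the lowest array of the control series. The fraction was below that of Met_0 in both brain arrays at 7 of the 9 genes, against 58.1% of all probes, and at 6 of them by at least 0.05, against 32.2%. The median of Met_0 minus the brain mean was 0.108 over the 9 genes and 0.0165 over all probes. Id4 had the widest gap, with 0.343 in Met_0 against 0.0533 in A2B5_mas and 0.0488 in PSA-NCAM_mas. Sox2 had 0.346 in Met_0, so the gene with the highest brain values was still 0.139 and 0.162 below that array. Id3 had 0.253 in Met_0, Id1 had 0.207, and Notch1 had 0.168. These 3 genes were 0.106 to 0.165 below Met_0 in the brain arrays.

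Hes5 was the remaining gene with such a gap, at 0.142 in Met_0. Notch2 had 0.0627 in Met_0, within 0.01 of either brain value. Hes1 had 0.0357 and Id2 had 0.0847, and in both the A2B5_mas value lay just above Met_0 and the PSA-NCAM_mas value just below it. Hes1, Id2 and Notch2 thus read at the level of Met_0 in brain, and the other 6 genes below it. A Met_0 value of 0.2 or more was found at Id1, Id3, Id4 and Sox2, 4 of the 9, against 33% of all probes, so Met_0 was no common floor for these genes. Across the 9 genes Spearman's rho between Met_0 and the brain mean was 0.533, a description of 9 probes read on the same arrays.

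A2B5_mas and PSA-NCAM_mas, named after a glial and a neuronal progenitor marker, differed little at these genes. None of the 9 differed by 0.2 or by 0.05, the share of all probes at least 0.2 apart being 0% in each direction, the share at least 0.05 higher in A2B5_mas 12% and the share at least 0.05 lower 0.785%. Those shares include probes at higher levels. All of the 9 but Sox2 had a brain mean under 0.1, and none of the 194 probes at that level differed by more than 0.0343. A difference under 0.05 is therefore no particular trait of these genes. With 1 array each there was no test. A2B5_mas was the higher at 7 of the 9, against 65.2% of all probes, a share near the background. The median difference, A2B5_mas minus PSA-NCAM_mas, was 0.00445 over the 9 genes and 0.00429 over all probes.

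Sox2 had the largest difference of the 9, 0.0224. Id2 and Id3 each differed by 0.0170 and Id1 by 0.00680, all 3 in the same direction as Sox2. Id4, Hes1 and Notch1 were higher in A2B5_mas by 0.00445, 0.00373 and 0.00311. The 2 genes lower in A2B5_mas, as were 34.8% of all probes, were Hes5, with a difference of -0.00754, and Notch2, with -0.00230. The SD for a difference of 2 arrays at the same probe, estimated over 331 probes from how far Met_50 lay from the midpoint of Met_25 and Met_75, was 0.0326, and all 9 differences were smaller. This SD counts any bend of a probe's curve as scatter. It comes from higher levels than those in brain and is a rough scale only. Among the 194 probes with a brain mean under 0.1 the difference had an SD over probes of 0.00923, which Id2 and Id3 exceeded and the other 6 genes of that range did not.

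The direction at the smallest differences depended on scaling. When the median difference over all probes was subtracted, Hes1 became -0.000556 and Notch1 -0.00118, so that 5 of the 9 were higher in A2B5_mas and 4 lower. Under quantile normalization of the brain arrays Hes1 became 0 and the difference at Sox2 went from 0.0224 to 0.00235. Sox2 lies in a range, from 0.1 to 0.3, where A2B5_mas was the higher at 69 of 98 probes with a median difference of 0.00999. The part of this common shift in the Sox2 value was not tested.

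**Figure D2:**
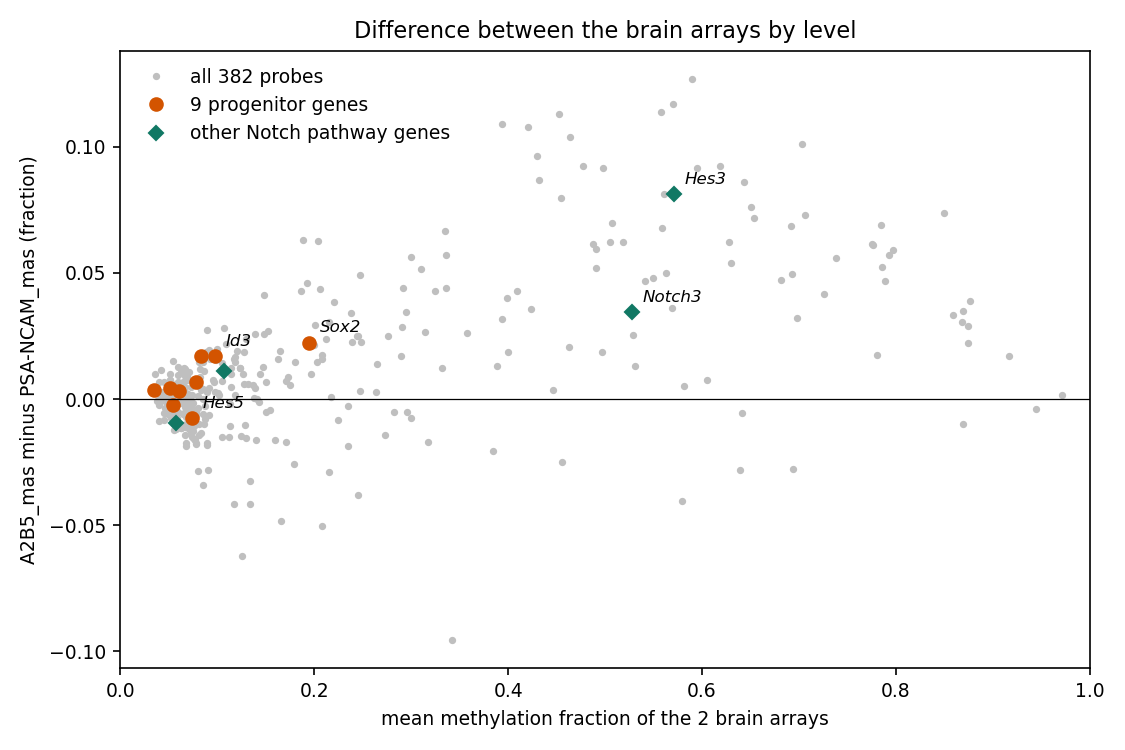
Difference in methylation fraction, A2B5_mas minus PSA-NCAM_mas (vertical axis), against the mean of the 2 brain arrays (horizontal axis) for all 382 probes (grey), the 9 progenitor genes (orange) and 4 other Notch pathway genes (green diamonds). The progenitor genes lie between -0.00754 and 0.0224 at the low end of the scale, while Hes3 and Notch3 lie higher on both axes.

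The Met arrays show how each probe answers to control DNA of rising nominal methylation. All 9 genes rose with the number in the title (slope of the fraction, exact two-sided permutation test over 120 orders of the 5 arrays, Benjamini-Hochberg over 382 probes), against 87.7% of all probes. The adjusted p was 0.0206 for 8 genes, whose unadjusted p of 0.0167 is the smallest that 5 arrays allow, and 0.0373 for Id3. The test counts the Met arrays as separate samples, and how their DNA was prepared is not stated. All 9 also had a fraction in Met_100 at least 0.3 above Met_0, against 86.6% of all probes.

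The courses of the 9 probes differed in shape. Notch2 had 0.0627, 0.644, 0.658, 0.749 and 0.925 from Met_0 to Met_100. Hes5 had 0.142, 0.721, 0.766, 0.788 and 0.917. Hes1 had 0.0357, 0.546, 0.586, 0.706 and 0.892. These genes made most of their rise between Met_0 and Met_25, which held 67.4% of it at Notch2, 74.7% at Hes5 and 59.6% at Hes1.

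Id2 had 0.0847, 0.501, 0.678, 0.723 and 0.867, with 53.3% of its rise reached at Met_25. Notch1 had 0.168, 0.347, 0.430, 0.528 and 0.694, and Id1 had 0.207, 0.328, 0.474, 0.524 and 0.779. Both climbed in smaller steps, and Met_25 held 34.0% of the rise at Notch1 and 21.1% at Id1. The receptors Notch1 and Notch2, nearly equal in brain, therefore stood apart in Met_25, at 0.347 and 0.644.

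Id4 had 0.343, 0.513, 0.517, 0.588 and 0.721, and Sox2 had 0.346, 0.485, 0.557, 0.568 and 0.664. Both started high and covered a short range, 0.378 at Id4 and 0.318 at Sox2. Id3 had 0.253, 0.336, 0.335, 0.348 and 0.659, and so hardly moved from Met_25 to Met_75. It was the only gene of the 9 that did not rise at each of the 4 steps, as 79.6% of all probes did. A probe this flat cannot separate the middle of the scale, whereas both brain values of Id3 lay below its whole curve.

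Slopes over the full series ran from 0.288 per 100 title units at Sox2 to 0.749 at Hes1. Without Met_0 the slope went from 0.732 to 0.373 at Notch2, from 0.749 to 0.463 at Hes1, from 0.647 to 0.245 at Hes5 and from 0.714 to 0.457 at Id2. Without Met_100 the slope of Id3 went from 0.330 to 0.114. At Notch1, Id1, Id4 and Sox2 leaving out any 1 array moved the slope by a factor of at most 1.31. Read off their own curves, the brain values of 7 genes were at 0% in both samples, since values below Met_0 are set to 0. Hes1 and Id2 reached 0.0214% and 0.402% in A2B5_mas alone, where they exceeded Met_0 by 0.000437 and 0.00671.

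**Figure D3:**
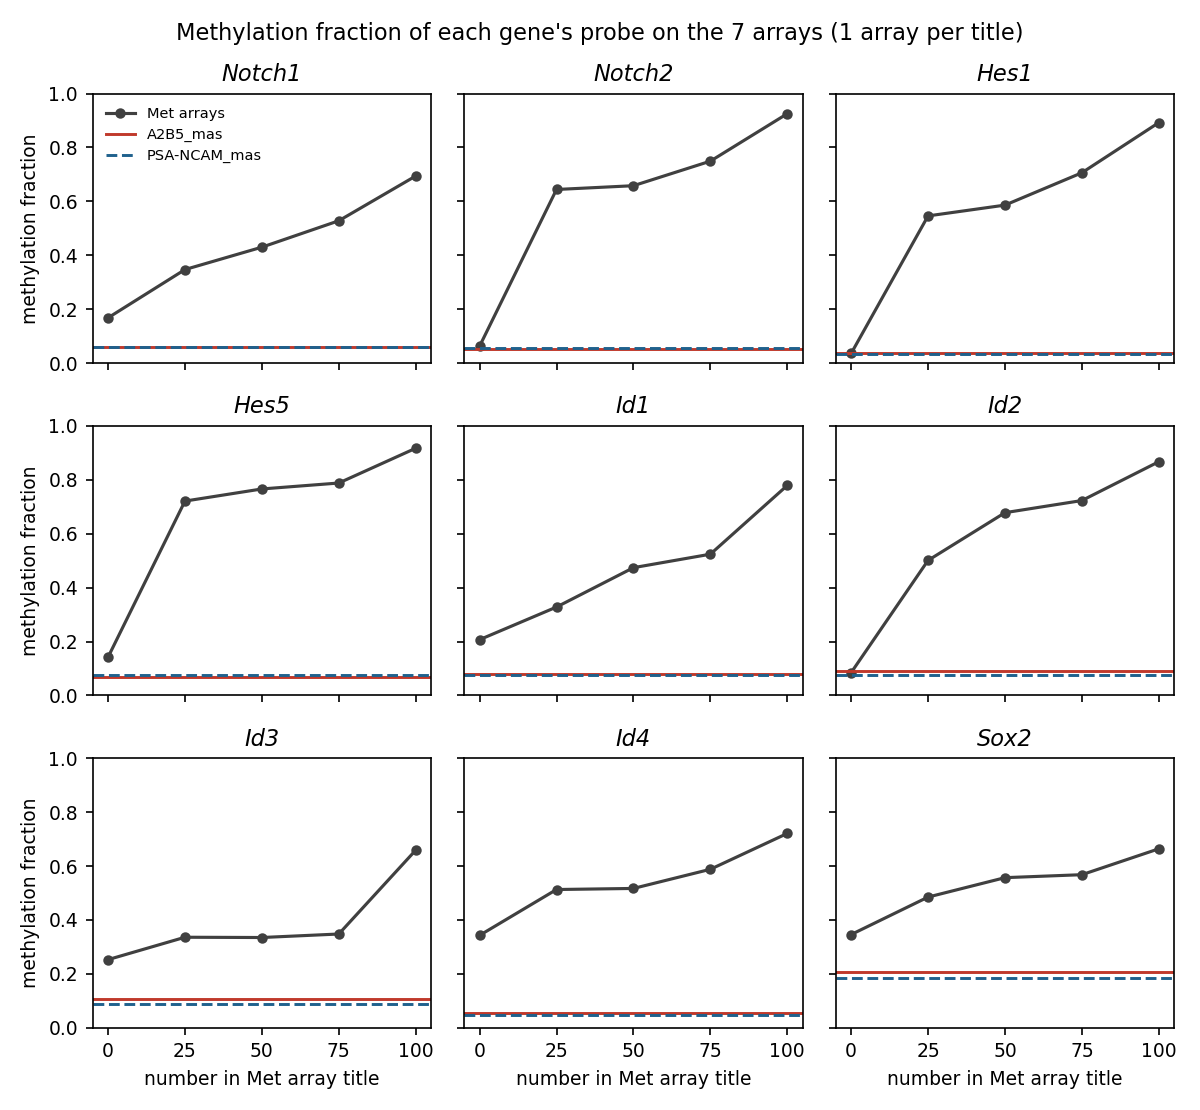
Methylation fraction (vertical axis) of each of the 9 probes on the 5 Met arrays (points joined by a line, against the number in the title on the horizontal axis), with the A2B5_mas value as a solid red line and the PSA-NCAM_mas value as a dashed blue line, 1 array per title. The brain lines lie below the Met_0 point in every panel, except A2B5_mas at Hes1 and Id2, which lies above it by less than 0.01.

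Of 37 other Notch pathway genes listed, 4 had a probe. All 4 rose in the Met series by the same test, against 87.7% of all probes. They fell into a low and an intermediate pair in brain, where 66% of all probes were under 0.2 in both arrays. Jag2, a Notch ligand, had 0.0530 in A2B5_mas against 0.0626 in PSA-NCAM_mas. Fbxw7, part of the ubiquitin ligase that degrades the released Notch fragment, had 0.113 and 0.101. Notch3, a receptor known from vascular smooth muscle, had 0.545 and 0.511. Hes3, a further repressor of the Hes family, had 0.611 and 0.530.

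Notch3 and Hes3 were thus far above Notch1, Notch2, Hes1 and Hes5 in both samples, and both were above their own Met_0 values of 0.282 and 0.334. Similar fractions at these genes corresponded to different points of their Met curves. Notch3, which had 0.502 in Met_75, read 82.2% in A2B5_mas and 76.4% in PSA-NCAM_mas. Hes3, which had already reached 0.629 in Met_25, read 23.5% and 16.6%. The difference of Hes3 between the brain arrays, 0.0813, exceeded that of any of the 9 genes, as did that of Notch3, 0.0345. All of the 9 but Sox2 had a brain mean under 0.1, where no probe differed by more than 0.0343.

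Of 22 listed genes of bone morphogenetic protein signalling and of the basic helix-loop-helix partners of Id proteins, Olig2, a lineage factor of oligodendrocytes, was on the array and had 0.0750 and 0.0735 in the brain arrays. Of 18 further neural progenitor genes, 0 were on it. Markers of cell types give no expression here and cannot check the titles. Of the glial markers, 6 had a probe, 3 of them higher and 3 lower in A2B5_mas, against 65.2% and 34.8% of all probes. The 2 neuronal probes were under 0.2 in both samples, as were 66% of all probes. Both were lower in A2B5_mas, Ncam1 at 0.0741 and 0.0791 and Camk2a at 0.0642 and 0.0742. Ifng, listed for blood cells, had 0.609 and 0.601, and Ednrb, listed for endothelium, had 0.120 and 0.108.

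The probe most like each gene over the 7 arrays was found by the root mean square difference in fraction. The closest match was Itm2b for Notch2, at 0.0149, followed by Bok, an apoptosis regulator, for Hes1 at 0.0172. Gabrg3, a GABA receptor subunit, was nearest to Hes5 at 0.0209, and Foxp2, a forkhead factor, to Notch1 at 0.0216. Chrnb2, a nicotinic receptor subunit, was nearest to Id2 at 0.0272. Olig2 was nearest to Id4 at 0.0361, and both combined a high Met_0 value with low brain values, Olig2 at 0.431 in Met_0. Adora2b for Id1, Kcnip1 for Id3 and Tomt for Sox2 were at 0.0374 to 0.0385. Within the 9 genes Notch1 and Id1 were the most alike of 36 pairs, at 0.0409, and Hes5 and Id3 the least, at 0.295.

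The promoters of these genes are rich in CpG. A RefSeq window of 300 bases, 250 before to 50 after the start, was found for 7 of the 9 genes and for 284 of the 382 probes. The 7 windows held 19 to 41 CpGs, with a median of 27 against 16 over the 284, and observed over expected CpG had a median of 0.819 against 0.622. Id3 had the fewest CpGs (19), Id2 had 21 and Notch1 23, Sox2 had 27 and Id4 39, while Notch2 and Hes5 had 41 each. Within the 7, the 3 genes with the most CpGs had brain means between 0.0511 and 0.0738. Notch1, with its 23, lay in that range as well, at 0.0600.

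Over the 284 probes, Spearman's rho between CpG count and brain mean was -0.398, a description across probes that share the same arrays. Notch3 did not follow this direction, since its window held 25 CpGs, close to the 23 of Notch1, at a brain mean of 0.528 against 0.0600. Sox2, shown above with its 27 CpGs all in the printed bases, had a brain mean of 0.195. Jag2 had 63 CpGs and a brain mean of 0.0578. The 6 letters TGGGAA, the core bound by RBPJ, were searched on both strands. They occurred in Hes5, on each strand, and in Id4, on the minus strand, so in 2 of the 7 windows, against 22.5% of the 284 and 25.6% of all 32851 windows in the table.

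**Figure D4:**
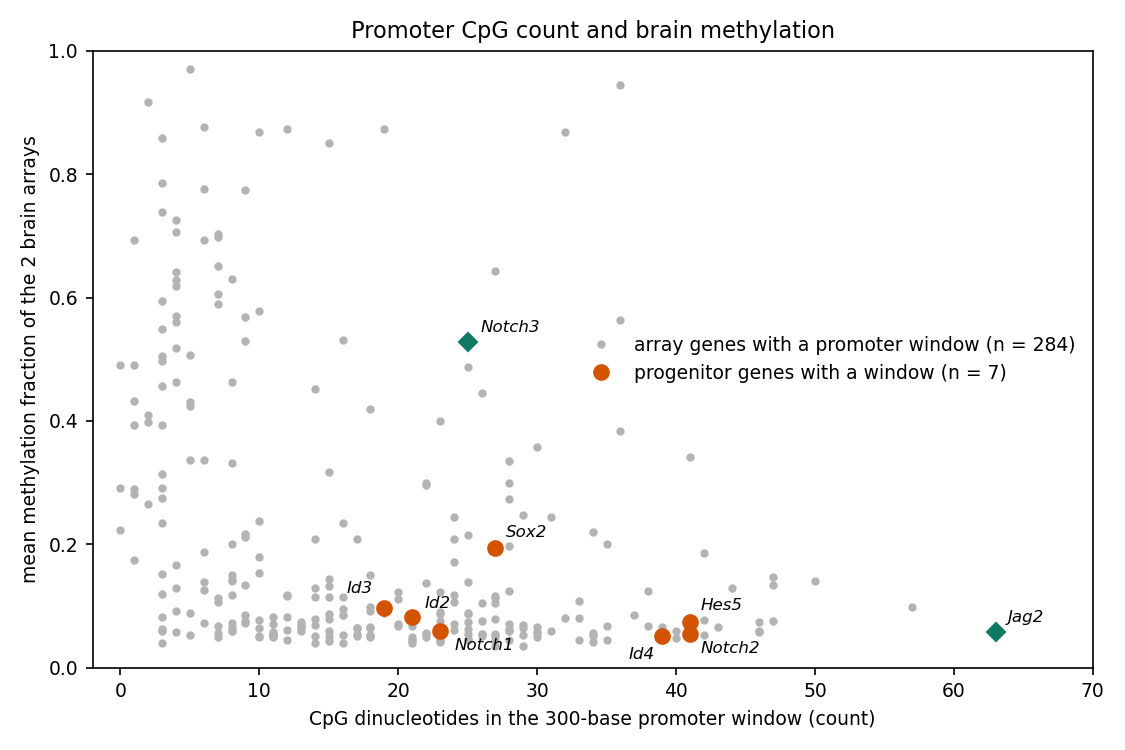
Mean methylation fraction of the 2 brain arrays (vertical axis) against the number of CpG dinucleotides in the 300-base promoter window (horizontal axis) for 284 probes (grey), 7 progenitor genes (orange) and Notch3 and Jag2 (green diamonds). The progenitor genes hold 19 to 41 CpGs and lie under 0.2, while Notch3 with 25 CpGs lies at 0.528.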

How the data were processed

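Per the series' design text the arrays carry bisulphite-converted DNA. The deposited table gives 1 value per probe and array, read here as a methylation fraction (beta value), since each lies between 0 and 1. Which software, background correction, normalization and genome build lie behind it is not given in the sources used here. Any background left in the signal would raise low values. With 1 array per title, precision cannot be estimated from replicates.

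The genes, lists and rules were chosen with earlier results of these data known. Analyses used Python 3.11.15 (numpy 2.4.6, pandas 2.3.3, scikit-learn 1.9.0, matplotlib 3.10.9). The slope over the Met arrays was tested exactly for every probe, with Benjamini-Hochberg adjustment over all 382 and calls at 0.05, using code tested on simulated data. Brain values were also read off each probe's Met curve, made monotone by isotonic regression, with values below Met_0 read as 0. Probe symbols were looked up in RefSeq (362 current names and 20 older ones), and each promoter was the RefSeq window nearest the gene's start. Named genes are the 9, the other list genes with a probe, the probe nearest to each of the 9, and example cell type markers chosen after their values were seen. The marker counts include 1 gene that is not reported here. Alternatives covered scale, normalization, size limits and left-out Met arrays.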

Additional observations from a re-analysis of the deposited data

How the results depend on the processing

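The 9 genes rising in the Met series became 8 with Spearman's correlation and stayed 9 on the log2(value / (1 - value)) scale. Leaving out each Met array in turn gave 0 to 0 genes, since 4 arrays cannot reach 0.05. The 8 genes low in both brain arrays became 7 at a limit of 0.1 and 9 at 0.3. They became 1 under quantile normalization of all 7 arrays, which by construction gives the brain and Met arrays the same distribution. On the Met curves the count was 9, but this is no check, since values below Met_0 read as 0 there. The 2 genes lower in A2B5_mas became 4 with the median difference subtracted, an alternative added after seeing the data. The counts of 0 at a difference of 0.2 stayed 0 at 0.1, at 0.05, under both normalizations and on the Met curves, where values below Met_0 cannot differ. Genes below Met_0 in both arrays stayed 7 under quantile normalization and were 6 by at least 0.05. A rise of at least 0.5 was met by 6 of the 9, the median rise being 0.571 over the 9 and 0.62 over all probes. Shares of all probes were given for the main settings, and counts under an alternative without such a share have no background here. The median difference ranged from 0.000165 to 0.00448. No paired analysis was possible because each title has 1 array.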
